A study of Mus musculus with 4 samples.

Results

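The complement genes C3, C4b, Cfb, Cfd, Cfi, C1ra, Serping1 and Cd55 were followed in mouse primary chondrocytes across 4 expression arrays. They were chosen by name, and every array probe whose accession is a RefSeq transcript of one of them was read, which gave 11 probes for the 8 genes among 55619 probes for 37042 genes or unnamed transcripts. The cells came from 6-day-old C57BL/6J mice and were cultured for 3 days without TNF or with 10 ng/mL TNF. One genotype was Rela fl/fl, in which both copies of the gene for the NF-κB subunit Rela are flanked by loxP sites but no Cre is present. The other was Prrx1-Cre;Rela fl/fl, called cKO, in which Cre is driven by the Prrx1 promoter, active in limb mesenchyme, so cells of other origin keep the gene. Each of the 4 combinations was measured on 1 array. No value therefore has a replicate, no test between conditions was possible, and all differences below are those of these 4 arrays. The number of animals behind each array is not given in the sources used here.

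Complement is a cascade of plasma proteins that tags surfaces for removal and calls in inflammatory cells. In the classical route, the protease C1r activates C1s, which cleaves C4 and C2. In the alternative route, factor D cleaves factor B bound to a form of C3, and both routes meet at the cleavage of C3. Regulators in the fluid and on the cell surface hold the cascade in check, and the liver makes much of the plasma protein, while many tissues also make components locally. Several complement genes are known to respond to inflammatory cytokines.

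The promoter sequences are shown for 3 members that behaved differently with TNF, C3 with the largest rise, C1ra with a small one, and Cd55, whose TNF change was nearly equal in both genotypes. They come from RefSeq, build GRCm38.p6, whereas the array files name another assembly. Each runs from 250 bases before to 50 bases after a transcription start, 300 bases in all, and 4 of the 8 members had an entry. C3 is at chr17:57228087-57228386 on the minus strand, C1ra at chr6:124512371-124512670 on the plus strand, and Cd55 at chr1:130462695-130462994 on the minus strand. Capitals mark matches to the C/EBP motif TTNNGNAA, searched on both strands.
C3: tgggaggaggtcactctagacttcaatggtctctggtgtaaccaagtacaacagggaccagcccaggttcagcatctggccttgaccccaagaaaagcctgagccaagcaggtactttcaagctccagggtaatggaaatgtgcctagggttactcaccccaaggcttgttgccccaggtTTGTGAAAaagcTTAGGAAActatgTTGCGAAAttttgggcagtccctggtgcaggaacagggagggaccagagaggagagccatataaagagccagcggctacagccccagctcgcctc
C1ra: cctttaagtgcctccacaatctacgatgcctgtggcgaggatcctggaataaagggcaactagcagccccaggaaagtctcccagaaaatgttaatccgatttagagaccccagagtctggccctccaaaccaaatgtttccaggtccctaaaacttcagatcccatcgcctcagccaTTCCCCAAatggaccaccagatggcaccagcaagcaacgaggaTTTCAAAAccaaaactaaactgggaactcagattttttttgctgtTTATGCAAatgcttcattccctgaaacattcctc
Cd55: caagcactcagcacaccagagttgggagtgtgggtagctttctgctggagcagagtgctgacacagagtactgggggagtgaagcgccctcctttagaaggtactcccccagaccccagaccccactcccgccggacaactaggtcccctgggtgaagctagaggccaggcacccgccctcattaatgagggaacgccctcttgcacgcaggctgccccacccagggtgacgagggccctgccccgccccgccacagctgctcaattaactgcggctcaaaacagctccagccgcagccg
The C3 promoter held 3 matches to this motif, at bases -70 to -63, -58 to -51 and -45 to -38 from the start, the last of them on both strands. C1ra also held 3, and Cd55 and Cfd none. Of 32851 promoters of the same length, 40.7% held at least 1 match, so a match is common. The NF-κB consensus was in none of the 4 promoters and in 8.46% of all of them. These letters are a description of the window and no measure of factor binding.

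The targeted gene was read first. Rela had an intensity of 17380 ± 1738 in Rela fl/fl cultures without TNF and 21472 ± 2147 with it, and of 21528 ± 2153 and 23707 ± 2371 on the arrays labelled cKO. Here and below, intensity is the deposited processed signal of the scanner software, and ± is that software's own error estimate for the spots, not a spread between cultures. Rela was thus not lower on the arrays labelled cKO, with log2 differences of 0.26 without and 0.21 with TNF. Whether the probe lies in the deleted part was not tested, so the genotype is named below as the label gives it. The authors' paper reports PCR evidence of recombination at Rela in chondrocytes of this genotype, and RT-PCR evidence of its deletion by tissue. Probes of genes on the sex chromosomes also moved with the genotype label. Xist, transcribed from the inactive X chromosome, gave 439 and 465 in Rela fl/fl cultures without and with TNF and failed the background flag on both cKO arrays. Ddx3y, on the Y chromosome, gave 799 and 801 in Rela fl/fl cultures against 2319 and 2497 on those arrays. The genotype label and the make-up of the cultures by sex cannot be told apart. These genes were added after the data had been seen.

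The cells were checked by markers. All 13 chondrocyte markers read were well above background on all 4 arrays, among them the collagen gene Col2a1, between 358096 and 375213, and Acan, which encodes aggrecan, between 34676 and 61399. Among macrophage and leukocyte markers, 4 of 11 were well above background on all 4 arrays, and Ptprc, which encodes the leukocyte antigen CD45, was on none. The summed signal of the 11, most of it from Csf1r, was 4.58 and 4.14 in Rela fl/fl cultures without and with TNF against 4.24 and 4.03 where the label was cKO. Csf1r, the receptor of a macrophage growth factor, read between 1741 and 1877 on its brightest probe, the one in the sum. Another of its probes read between 720 and 979. Its dimmest read between 26.1 and 41.5 and was not well above background on the array labelled cKO without TNF. Other markers moved with the genotype label and are named after their values were seen. The macrophage lysozyme gene Lyz2 read 404 and 152 against 96.9 and 75.7, its first value on a spot in a bright patch, Tyrobp, an adaptor of myeloid receptors, was at least 3.06-fold lower without TNF, and Laptm5, a lysosomal protein of blood cells, was at least 6.62-fold lower with TNF, the brighter value on a spot in a patch. Adgre1, which encodes the macrophage antigen F4/80, was higher without TNF, on a spot in a patch. Among 8 fibroblast markers, all well above background on all 4 arrays, the summed signal was 904 and 951 against 782 and 809. The collagen gene Col1a1 read between 96104 and 106040, and Thy1, a surface antigen, 1572 and 982 against 540 and 777. The part of these cells in the members' values was not tested. A bulk array cannot tell fewer cells of a type from less RNA per cell.

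Differences between arrays are log2 differences after each array was scaled to the 75th percentile of its signals. A difference was counted when it reached 1 on the log2 scale, 2-fold, and the brighter array was well above background. Where the dimmer array was not, the dim side was set no lower than the faintest flagged signal of its array, and the value is then a bound. Of 399 probes with 10 spots, between 173 and 215 on an array had every spot well above background and none an outlier. From these, the technical spread of a difference was 0.138 on the log2 scale. It was between 0.31 and 0.37 for signals under -3, between 0.15 and 0.18 for signals of -3 to 0, and between 0.083 and 0.090 above that, and it leaves out the spread between cultures.

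With TNF, C3 and Cfb rose past the limit in Rela fl/fl cultures and Cfd fell just past it, a call that several alternatives ended, whereas no member passed it on the arrays labelled cKO when each gene was read by its brightest probe. In the comparison of genotype labels, C4b, Cfb, Cfd and Cfi were lower without TNF on the array labelled cKO, of which C4b, Cfb and Cfi fell short under at least 1 alternative, and with TNF these 4 and C3 were lower. C1ra, Serping1 and Cd55 did not pass the limit in any comparison on the probes that stood for them, and Serping1 lay close to it with TNF.

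**Figure D1:**
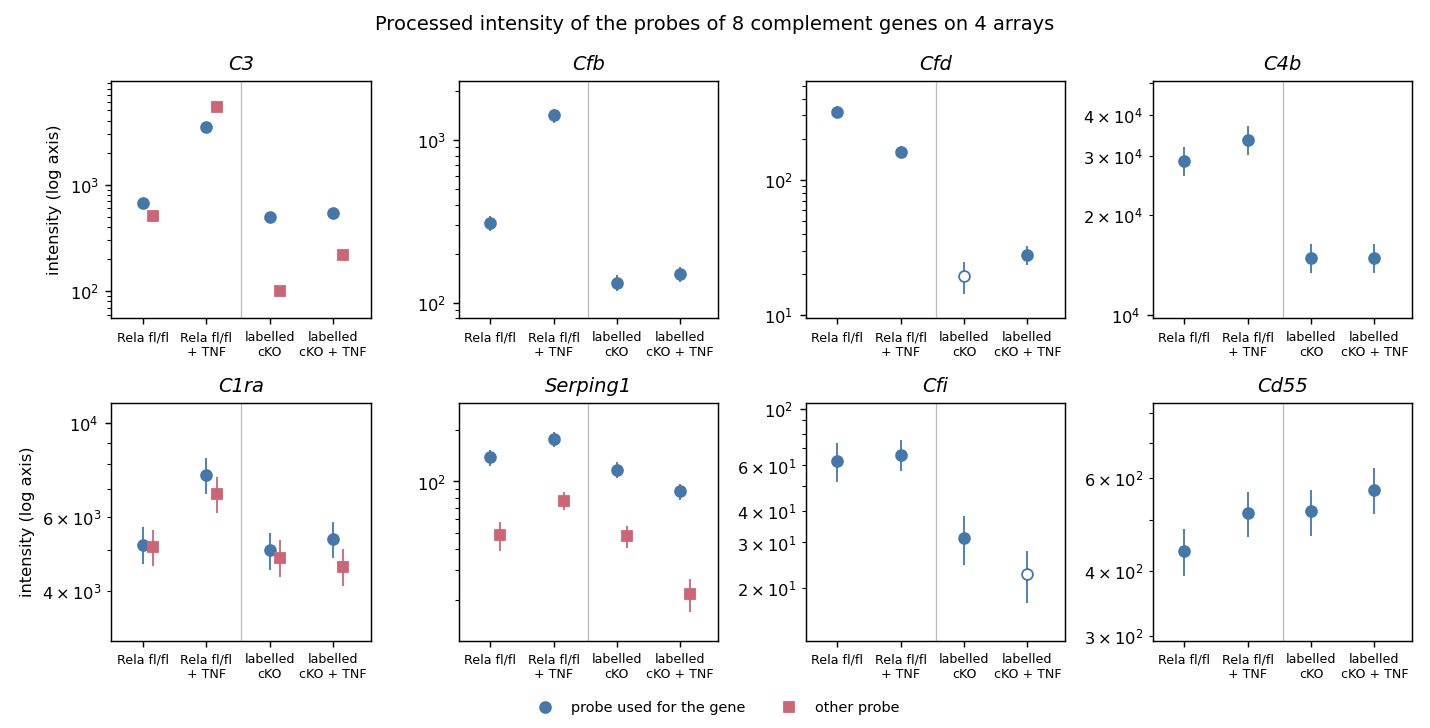
Processed intensity (log axis) of all 11 probes of the 8 members on the 4 arrays, with the software's error as bars. Hollow points were not well above background; blue circles are the probe used for the gene and red squares the other probe. C3 and Cfb are high on the array of Rela fl/fl cultures with TNF, and C4b, Cfd and Cfi are lower on both arrays labelled cKO.

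C3, the central component whose cleavage all routes share, was read by a probe with 10 spots and by another with 1. The 10-spot probe gave 505 ± 51.2 without and 5356 ± 536 with TNF in Rela fl/fl cultures, a log2 difference of 3.40 or 10.5-fold. On the arrays labelled cKO it gave 100 ± 11.4 and 221 ± 22.5, a log2 difference of 1.24 or 2.36-fold. The spots kept on 1 array did not overlap those on any other array. Over its spots, the mean and SD were 506 ± 16.8 (n = 10 spots) and 5356 ± 106 (n = 10 spots) in Rela fl/fl cultures without and with TNF, and 100 ± 7.99 (n = 9 spots) and 221 ± 10.0 (n = 10 spots) on the arrays labelled cKO. On the cKO array without TNF, 1 outlier spot was left out and 2 of its spots lay in a bright patch of the array.

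**Figure D2:**
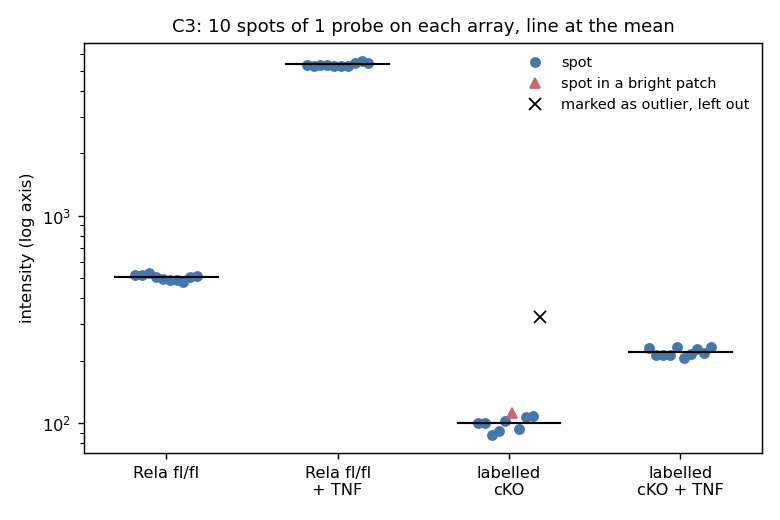
Intensity (log axis) of the 10 spots of 1 C3 probe on each array, with a line at the mean of the spots kept. The spots of Rela fl/fl cultures with TNF lie between 5241 and 5546, those without TNF between 479 and 533, and the arrays labelled cKO between 88.1 and 112 without and 207 and 234 with TNF.

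The other C3 probe, which had the higher mean of log2 signals over the 4 arrays and so stood for the gene, was lower than the 10-spot probe on the array of Rela fl/fl cultures with TNF. It read 667 ± 67.1 and 3479 ± 348 there, a log2 difference of 2.37 or 5.18-fold, and 499 ± 50.1 and 539 ± 54 on the arrays labelled cKO, a log2 difference of 0.21. Compared across genotype labels it was lower by 0.47 on the log2 scale without TNF and by 2.63, or 6.18-fold, with TNF, against 2.39 and 4.54 for the 10-spot probe. Both probes thus passed the limit for TNF in Rela fl/fl cultures and for the genotype label with TNF, by different amounts, and the 10-spot probe alone passed it in the other 2 comparisons. The TNF change on the arrays labelled cKO was less than that in Rela fl/fl cultures by 2.15 on the 10-spot probe and 2.16 on the other.

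Cfb encodes factor B, which supplies the protease of the alternative route. Its probe gave 307 ± 31.7 without and 1410 ± 141 with TNF in Rela fl/fl cultures, a log2 difference of 2.19 or 4.57-fold. On the arrays labelled cKO it gave 132 ± 14.4 and 149 ± 15.5, a log2 difference of 0.27. These 2 arrays were the lowest, 2.40-fold below Rela fl/fl cultures without TNF and 9.06-fold below them with TNF. With normexp background the difference without TNF was -0.87 on the log2 scale, short of the limit, against -1.26. The single spot behind the value of 132 lies in a bright patch of that array, and the part of the patch in it was not tested. With patches left out, Cfb had no value on that array. Its call without TNF was then lost, and 3 members in place of 4 were lower there.

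Cfd encodes factor D, also called adipsin, the protease that cleaves factor B and is made in abundance by fat cells. Its probe gave 321 ± 32.8 without and 161 ± 16.7 with TNF in Rela fl/fl cultures, a fall of 2.01-fold that lies just past the limit. This call was lost with no scaling, with quantile normalization (-0.96 on the log2 scale) and with normexp background (-0.76). The array labelled cKO without TNF gave 19.4 ± 5.06, which was not well above background, and that with TNF 27.9 ± 4.56. Cfd was therefore at least 14.7-fold lower without TNF and 5.52-fold lower with TNF where the label was cKO. With normexp background the log2 differences were -2.19 and -1.28, against -3.88 and -2.46, so the bound of 14.7-fold holds for the processed intensity only. Adipocyte markers were read beside it. Of 9 markers, 4 were well above background on all 4 arrays, and Lep and Cidec on none. Adipoq, which encodes the fat-cell hormone adiponectin, read 147 and 116 in Rela fl/fl cultures without and with TNF, and on the arrays labelled cKO it was not well above background without TNF and read 22.6 with it on a spot in a bright patch. Fabp4, a fatty acid carrier, read between 1526 and 2189 on all 4 arrays, and Plin4, which coats lipid droplets, was higher on the arrays labelled cKO, at 3313 and 2270 against 1494 and 1247. Retn, which encodes the hormone resistin and is named after its values were seen, read 62.6 in Rela fl/fl cultures without TNF, was at least 2.26-fold lower there with TNF, and was at least 2.47-fold lower on the array labelled cKO without TNF. Of 7 markers tested in each genotype comparison, Adipoq and Retn were lower and Plin4 higher without TNF, and Adipoq was lower and Pparg, a regulator of fat-cell genes, higher with TNF, with median log2 differences of -0.21 and -0.19. The summed signal of the 9 markers, to which the bright Plin4, Pparg and Fabp4 probes add most, was 8.79 and 8.56 in Rela fl/fl cultures and 12.8 and 11.8 on the arrays labelled cKO. Their part in the Cfd values was not tested.

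**Figure D3:**
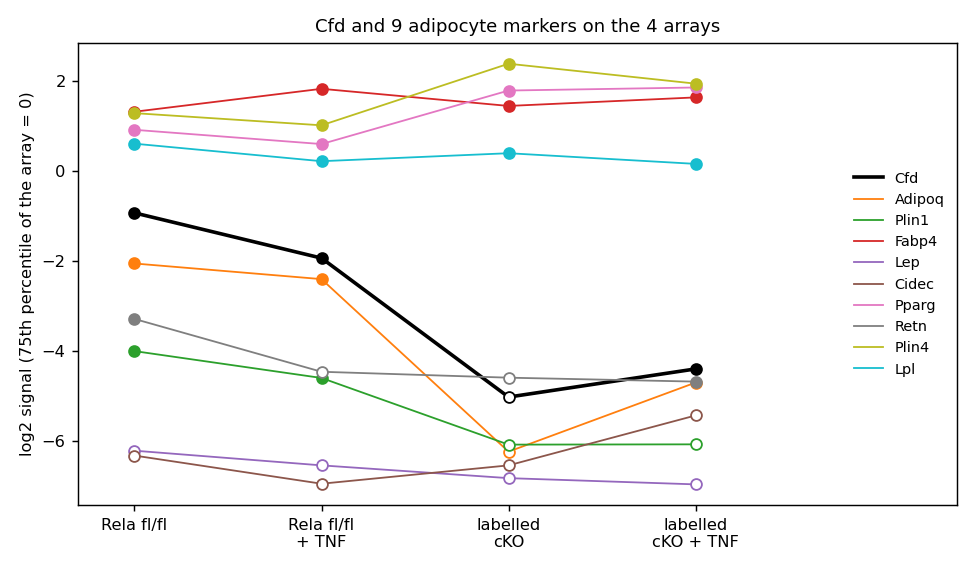
Log2 signal of Cfd and 9 adipocyte markers on the 4 arrays, where 0 is the 75th percentile of an array; hollow points were not well above background and the lines join the points of 1 gene. Cfd and Adipoq fall on the arrays labelled cKO while Plin4 and Pparg lie higher on them.

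C4b encodes C4, which the C1 complex cleaves. It read 29040 ± 2904 and 33595 ± 3360 in Rela fl/fl cultures without and with TNF, and 14859 ± 1486 and 14907 ± 1491 on the arrays labelled cKO. The TNF changes were 0.20 and 0.11 on the log2 scale, below the limit, while the arrays labelled cKO were 2.02-fold lower without and 2.16-fold lower with TNF. The difference without TNF lay close to the limit, at -1.02 on the log2 scale, and fell short of it in all 4 other scalings or backgrounds tried, -0.97 with no scaling, -0.98 with quantile normalization, and just under the limit with the authors' value table and with normexp background. C4a, a near-identical copy, had no probe by accession, and whether the C4b probe also reads it was not tested. Among the 13 chondrocyte markers, 2 (Col9a2 and Matn1) were past the limit and lower on the array labelled cKO without TNF and 1 (Matn1) with TNF, and the median log2 difference was -0.61 and -0.41. Col2a1 was at -0.03 and -0.01. The part of these markers in the C4b values was not tested.

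C1ra encodes the protease C1r. Its 2 probes gave 5155 ± 516 and 5080 ± 508 in Rela fl/fl cultures without TNF and 7537 ± 754 and 6795 ± 680 with it, log2 differences of 0.54 and 0.41. On the arrays labelled cKO the first probe gave 4995 ± 500 without and 5312 ± 531 with TNF, and the other gave 4792 ± 479 and 4561 ± 456, log2 differences of 0.19 and 0.03. C1rb, its near-identical copy, read between 520 and 914 and was 1.41-fold higher with TNF in Rela fl/fl cultures, with its spot in a bright patch on the array with TNF. Whether a probe of one copy also reads the other was not tested.

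Serping1 encodes the C1 inhibitor, which blocks C1r and C1s. Its brighter probe gave 138 ± 15.5 and 178 ± 18.4 in Rela fl/fl cultures and 117 ± 12.7 and 87.7 ± 9.54 on the arrays labelled cKO. The dimmer probe gave 48.3 ± 9.28 and 77.3 ± 9.46 against 47.7 ± 7.3 and 21.9 ± 4.82. On this probe TNF was followed by a 1.59-fold higher signal in Rela fl/fl cultures and a 2.03-fold lower one on the arrays labelled cKO, and the direction was the same on the brighter probe, 1.28-fold higher and 1.24-fold lower. On the dimmer probe the array labelled cKO with TNF was 3.38-fold below that of Rela fl/fl cultures, past the limit, and on the brighter probe 1.94-fold below, short of it. That brighter probe passed with no scaling and with the authors' value table, both at -1.02 on the log2 scale.

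Cfi encodes factor I, which cleaves C3b and C4b. It read 62.6 ± 10.8 and 66.1 ± 9.08 in Rela fl/fl cultures, 31.3 ± 6.89 on the array labelled cKO without TNF, and 22.6 ± 5.24, not well above background, with TNF. This was 2.07-fold lower without TNF and at least 2.80-fold lower with it, log2 differences of -1.05 and -1.49. Neither passed the limit with normexp background, at -0.54 and -0.45, and the first fell just short of it when the arrays were not scaled. Cd55, a membrane regulator that breaks up C3-cleaving complexes, differed little between the 4 arrays. It read 436 ± 44.2, 514 ± 51.7, 518 ± 52.1 and 570 ± 57.1 in the order Rela fl/fl without and with TNF and labelled cKO without and with TNF. Its TNF changes were 0.23 and 0.24 on the log2 scale, a difference of 0.01.

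**Figure D4:**
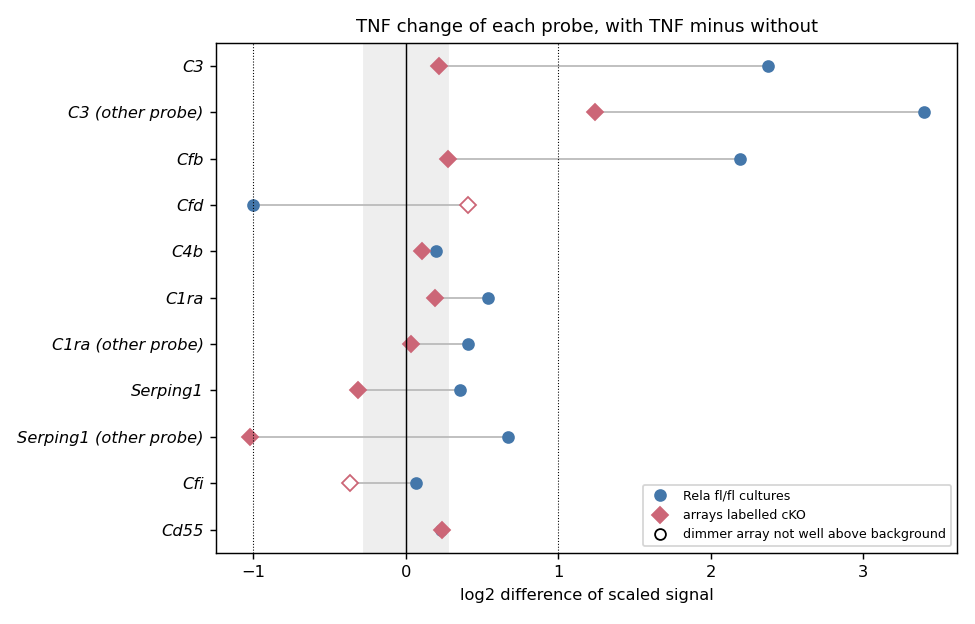
Log2 difference of each probe with TNF minus without, for Rela fl/fl cultures (circles) and the arrays labelled cKO (diamonds); the grey band is 2 technical spreads, 0.276 on the log2 scale, and dotted lines mark the limit. For signals under -3, as for Cfi, the dimmer Serping1 probe and Cfd on the arrays labelled cKO, the spread is 0.31 to 0.37, so the band is too narrow for them. C3 and Cfb lie far to the right in Rela fl/fl cultures, and Cfd and Serping1 lie on opposite sides of 0 in the 2 genotypes, with Cfd at 0.41 on the arrays labelled cKO, which is within 2 spreads of such dim signals.

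**Figure D5:**
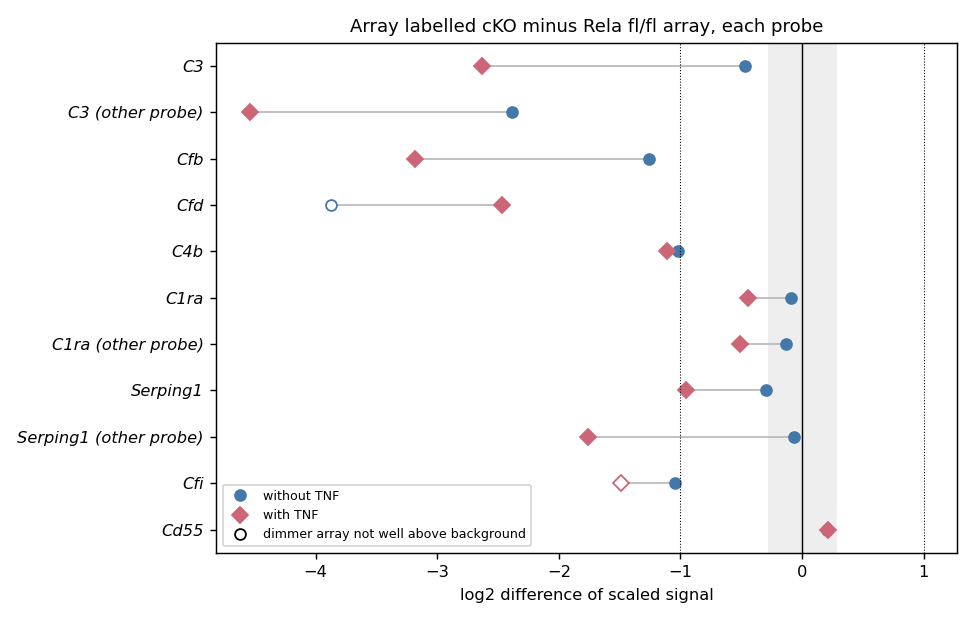
Log2 difference of each probe, array labelled cKO minus Rela fl/fl array, without (circles) and with TNF (diamonds); hollow points are bounds. All probes except that of Cd55 lie below 0. With TNF, all of these except that of Cfd lie farther below it, C3, Cfb and the dimmer Serping1 probe by the most.

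The counts stand beside those of all genes tested. In Rela fl/fl cultures with TNF, 2 of 8 members were higher and 1 was lower, against 2.39% higher and 4.27% lower among 23406 genes, and the median log2 difference was 0.29 for the members and 0.01 for all genes. On the arrays labelled cKO, 0 members passed in either direction with TNF, against 0.759% higher and 4.27% lower among 24902 genes. Of all genes past the limit there, 189 were higher and 1064 lower, which became 308 and 893 after quantile normalization. On the array labelled cKO without TNF, 4 of 8 members were lower and 0 higher, where 4.16% of 24276 genes were lower and 3.51% higher, and the median was -0.74 against 0.00. With TNF, 5 of 8 were lower and 0 higher, where 3.09% of 24511 genes were lower and 1.16% higher, and the median was -1.30 against 0.05. The members were chosen with earlier results of these data known, so their counts do not stand as support, and the 4 comparisons share their arrays. Leaving out bright patches lowered the shares of all genes, to 0.609% higher and 0.764% lower for TNF in Rela fl/fl cultures and to 0.917% lower for the genotype label without TNF. Reading any probe in place of the brightest, an alternative added after the data had been seen, called C3 higher and Serping1 lower for TNF on the cKO arrays.

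Of 51 other genes of the complement system, 50 were read. In Rela fl/fl cultures with TNF, 0 of the 29 that could be tested passed the limit, and 0 of 30 did in each of the TNF comparison on the arrays labelled cKO and the genotype comparison without TNF. With TNF, 3 of 32 were lower on the array labelled cKO, where 3.09% of all genes were. All 3 lay just past the limit, and 1 of the other complement genes passed it with normexp background, 2 with the mean over probes, and 4 with no scaling, quantile normalization or the authors' value table. They were C1s1 and C1s2, which encode near-identical copies of the protease C1s, and Clu, which encodes clusterin, a carrier that blocks the terminal complex. C1s1 read 3177 and 5195 in Rela fl/fl cultures without and with TNF and 2586 and 2420 on the arrays labelled cKO. Its TNF change was 1.62-fold in Rela fl/fl cultures, short of the limit, and its signal was 2.06-fold lower with TNF on the array labelled cKO. Clu read 11690 and 13957 against 6637 and 6617. The C1s2 probe, whose spot lies in a bright patch in Rela fl/fl cultures without TNF, gave 3304 and 5809 against 2866 and 2692, and whether it also reads C1s1 was not tested.

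C2, which supplies the protease of the classical route, read 317 and 377 in Rela fl/fl cultures and 287 and 259 on the arrays labelled cKO. Cd59a, which blocks the terminal complex on membranes, read 851 and 857 against 1270 and 1200, short of the limit. Cr1l, the rodent membrane regulator Crry, read between 5492 and 6022 on all 4 arrays. Hc, which encodes C5, lay near background, and Cd46, C3ar1 and C5ar1, the last 2 encoding receptors of complement fragments, were not well above background on any array.

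The genes most like C3 across the 3 differences from Rela fl/fl cultures without TNF were found among 9729 genes with a symbol, well above background on all 4 arrays and outside patches. They were Nkx1-2, a homeobox gene, at a distance of 0.73 on the log2 scale, then Gbp2, an interferon-induced GTPase, at 0.77, Tnfaip3, which encodes the NF-κB feedback inhibitor A20, at 0.99, Cxcl5, a neutrophil chemokine, at 1.04, and Ecscr, a surface protein of endothelial cells, at 1.06. The genes most like C4b were Col22a1, a collagen gene, at 0.083, Isg15, a ubiquitin-like modifier, at 0.14, Ifit1, which binds viral RNA, at 0.17, Dhx58, an RNA sensor of the helicase family, at 0.17, and Slc40a1, the iron exporter ferroportin, at 0.21. These neighbours hold for the probe that stood for C3. The 10-spot probe lay at a distance of 2.35 from it, farther than any of the 5 genes named.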

How the data were processed

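Total RNA was labelled with 1 dye (Cy3) and hybridised to an Agilent mouse array. The authors deposited, per the file headers, the processed intensity of each spot from Agilent Feature Extraction 10.10.1.1, with background subtracted and spatial trends removed, and flags for outlier spots and for spots well above background. The table of processed values deposited by the authors equals the processed intensity multiplied by a constant for each array (1.83, 1.77, 1.79 and 1.78) and served as an alternative; the basis of the factors is not given in the sources used here. From 59305 transcript spots, outlier spots were left out, each array's 75th percentile of log2 intensity was subtracted (intensities of 589 to 633), spots of a probe were averaged, and a gene was represented by its brightest probe, judged on mean log2 signal across all 4 arrays. No spot was saturated. Between 50.9% and 58.1% of probes were well above background. All 4 arrays lay on 1 slide and in 1 scan. Symbols came from accessions through RefSeq, in 27208 probes. Bright patches were marked where 3 or more of 54 neighbours (5 rows and 2 columns to each side) exceeded every other array 2-fold; between 0.970% and 10.5% of spots lay in them. With 1 array per group, no test was run; the number of arrays limits the precision, since the software error and spot spread hold within an array. The members and lists were chosen with earlier results of these data known; so was the patch rule. The rule for named genes took all members, complement genes past the limit outside patches with a preset set of others, the 5 genes nearest to C3 and to C4b, Rela, and markers of chondrocytes and other cells. The values of 1 gene under this rule are not reported here. The counting rule was tested on simulated data. Alternatives in scaling, background (limma normexp with offset 50 on the median intensity), filter, probe summary, limit and patches were run. Python 3.11.15, numpy 2.4.6, pandas 2.3.3, R 4.3.3 and limma 3.58.1 were used.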

Additional observations from a re-analysis of the deposited data

Results flagged for a closer look

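The TNF change had opposite signs in the 2 genotypes for Cfd and Serping1, with 1 array each, so the difference between the changes was not tested. The Cfd change on the arrays labelled cKO, 0.41 on the log2 scale, is within 2 technical spreads of such dim signals. For Cfd the TNF change on the arrays labelled cKO was higher by 1.41 on the log2 scale than that in Rela fl/fl cultures, but the array labelled cKO without TNF was not well above background, so this rests on a bound, and it was 0.91 with normexp background. For Serping1 the difference was -1.69 on the dimmer probe and -0.66 on the brighter probe. After quantile normalization the cKO change of the brighter probe was -0.07 in place of -0.31, which is within the technical spread, and the difference was -0.48.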

How the results depend on the processing

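No paired analysis was possible because each group has 1 array. Of 311 gene values under alternatives, 273 stayed within the technical spread of the main value and 38 moved, and none past the limit changed sign. The signs of 7 values short of it did, and of these the smaller TNF change of Cfi on the arrays labelled cKO, -0.44 relative to the other genotype, became 0.10 with normexp background. Of all counts, 148 of 176 stayed within 1.5 times. The Cfd fall in Rela fl/fl cultures was lost with no scaling, with quantile normalization, with normexp background and at a 3-fold limit, where 0 members were lower. On the array labelled cKO without TNF, 4 members were lower in the main setting and 2 with no scaling. The count was 1 with normexp background (C4b, Cfb and Cfi lost) and 1 at a 3-fold limit. It was 3 with quantile normalization or the authors' value table (C4b lost). With both arrays above background (Cfd lost) or patches left out (Cfb lost) it was also 3. With the mean over probes or any probe read it was 5, since C3 then passed. With TNF, 5 became 3 at the 3-fold limit, and 4 with normexp background (Cfi lost) or with both arrays above background. It became 6 with no scaling, the authors' value table, the mean over probes or any probe read, since Serping1 then passed. With any probe read, TNF on the arrays labelled cKO gave 1 member higher and 1 lower. Among the other complement genes, TNF in Rela fl/fl cultures gave 4 higher and 1 lower with no filter, 2 higher at a 1.5-fold limit, and 1 lower with the mean over probes or any probe read. TNF on the arrays labelled cKO gave 1 lower with no filter and 1 at the 1.5-fold limit. The genotype comparison with TNF gave 1 higher and 5 lower with no filter, 3 higher and 7 lower at 1.5-fold, 1 lower with normexp and 0 lower at 3-fold, and that without TNF gave 4 higher and 1 lower with no filter, 2 lower at 1.5-fold, and 1 higher and 1 lower with any probe read. The cause was not tested. Over all genes, the alternatives gave 114 to 1346 higher and 143 to 2361 lower with TNF in Rela fl/fl cultures (560 and 999 in the main setting), 60 to 1352 and 358 to 2322 on the arrays labelled cKO (189 and 1064), 245 to 2312 and 173 to 1916 for the genotype label without TNF (852 and 1011), and 83 to 2118 and 233 to 1538 with it (285 and 757); the highest came with no filter and most of the lowest with patches left out. Dim members such as Cfi and Cfd are limited by signal over background.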
